A study of Mus musculus with 2 samples.

Results

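The cells described here are the cultured mouse neural stem/progenitor cells (NSPCs) that were assigned to S or G2/M phase by their transcripts, compared between the high and the low PLIN2-GFP category. They were chosen by the cell cycle phase in the deposited per-cell table, and 172 of the 304 cells met this rule, 87 with low and 85 with high PLIN2-GFP. The line came from the subventricular zone (SVZ) of male C57/Bl6 mice aged 6 to 8 weeks, was passaged as neurospheres at least 5 times and grown with EGF and FGF-2 at 20 ng/ml each, and all its cells, low and high alike, carry a retroviral PLIN2-GFP fusion. Cells from the lowest and the highest 25% of GFP signal were sorted into 384-well plates, of which 2 were analysed, and sequenced singly by SORT-seq, a plate-based method that counts unique molecular identifiers (UMIs) on polyadenylated RNA. Plate 1 holds 46 low and 52 high cycling cells, and plate 2 holds 41 and 33. S phase accounts for 39 low and 38 high cells, and G2/M phase for 48 and 47. The plates are samples of 1 line, so p-values do not measure the spread between independent lines or animals. With the plate as a block, they rest on how the high-low difference varies between the 2 plates, with this spread shared across genes. For a single gene the p-value can be small although the plates lie far apart. No treatment separates the categories, which were defined by their GFP signal alone.

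Lipid droplets (LDs) store neutral lipids under a coat of proteins, and perilipin 2 (PLIN2) is a coat protein that is degraded when it is not bound to an LD, so that a PLIN2-GFP fusion follows the LD content of a cell. Adult SVZ stem cells share many transcripts with astrocytes, among them transporters for glutamate, bicarbonate and ions. As they divide and become progenitors of neurons, these transcripts give way to proneural factors, Notch ligands and cytoskeletal proteins of growing neurites. Dividing cells replicate DNA in S phase and then induce the mitotic genes of G2/M phase. Comparing the categories within these cycling cells leaves out the cells of the same culture that were assigned to G1 phase.

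In cycling NSPCs, high PLIN2-GFP went with more transcripts of astroglial transporters and enzymes and of *Igfbp2*, and with fewer transcripts of *Basp1*, *Sox4*, *Dll1*, *Gadd45g* and the mitochondrial ribosomal RNAs. Counts were summed over the cycling cells of each plate and category, which gave 4 sums of 388416 (low) and 674864 (high) UMIs on plate 1 and 567103 and 543583 on plate 2. Levels are given in counts scaled to a common total of 1e6 (CPM) of these sums after TMM scaling. Of 7252 genes tested, edgeR's quasi-likelihood test with the plate as a block, at an adjusted p under 0.1, called 84 higher with high PLIN2-GFP (1.16%) and 74 lower (1.02%). At an unadjusted p under 0.05 there were 390 and 413. The called genes had a median absolute log2 fold change of 0.75, and 23 of the higher and 26 of the lower genes differed at least 2-fold. Each of the 158 had the same sign on both plates, which a call over both plates together favours. Without the plate block, 4 and 3 genes were called by edgeR, and with the block DESeq2 called 3 and 7 and limma's voom 72 and 83. Scaling by library size alone gave 128 higher and 54 lower genes, and with 1 of the 4 sums left out, and so no block, 8 and 4 were called without the low sum of plate 1, 2 and 8 without its high sum, 2 and 15 without the low sum of plate 2 and 13 and 7 without its high sum.

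**Figure D1:**
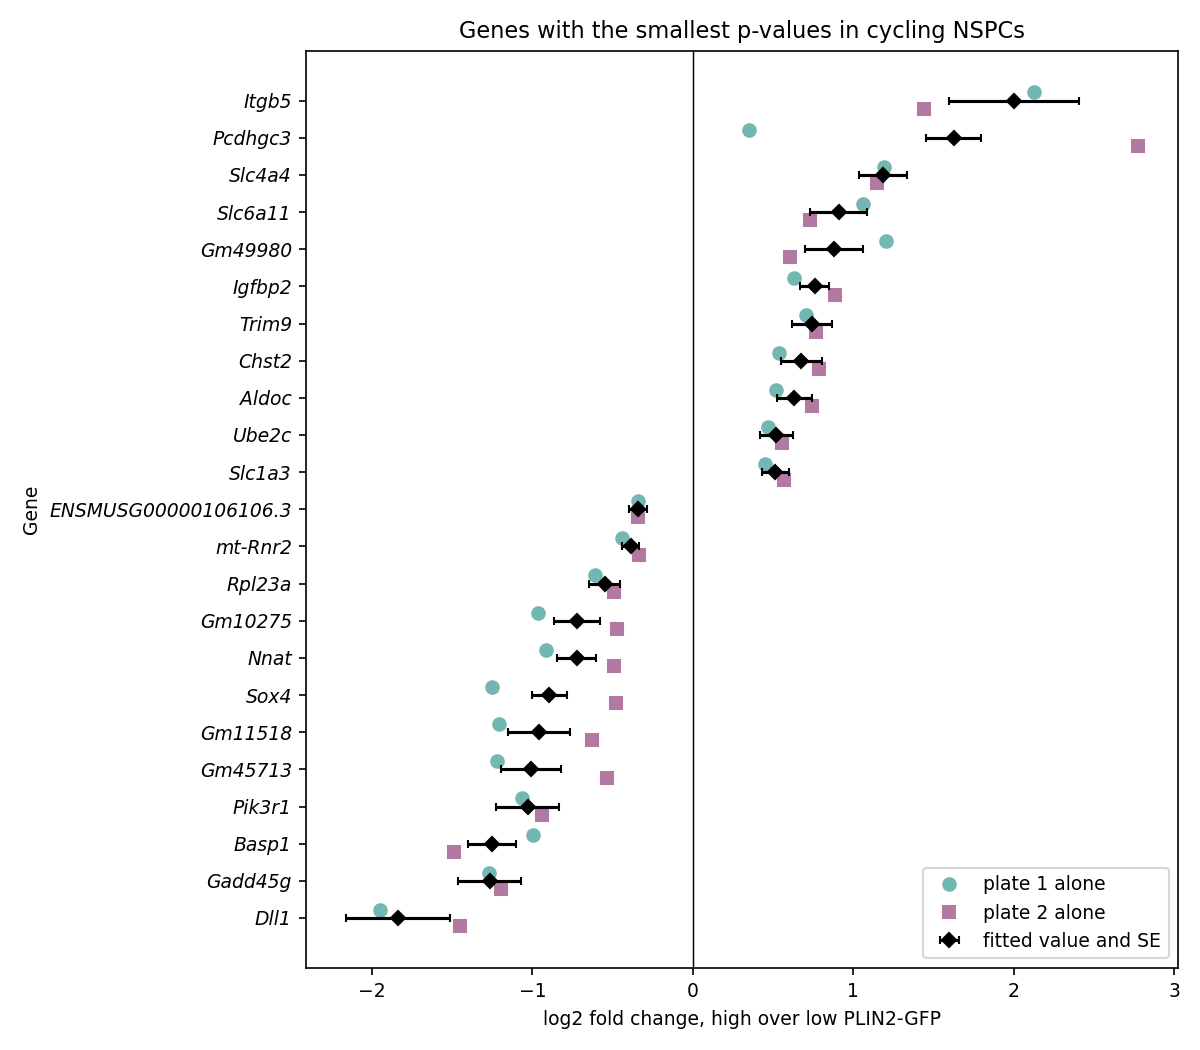
Log2 fold change of high over low PLIN2-GFP cycling NSPCs (x axis) for the 12 called genes of smallest p among the lower and 11 of the 12 among the higher ones (y axis), with the fitted value and its standard error (diamonds) and each plate alone (circles, plate 1 and squares, plate 2). Both plates lie on the same side of 0 for all these genes, and they lie far apart for *Pcdhgc3* (0.35 and 2.78).

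The categories also differed in depth. High PLIN2-GFP NSPCs in S or G2/M phase had a median of 12201 UMIs per cell on plate 1 against 7995 in low PLIN2-GFP NSPCs, and 15440 against 13743 on plate 2, which is 1.53 and 1.12 times as many. The median mitochondrial share of counts was 13.1% in low and 11.5% in high cells on plate 1 and 11.9% and 10.7% on plate 2, and the median G2/M score in the deposited table was 0.0432 and 0.198 on plate 1 and 0.163 and 0.206 on plate 2. An unpaired two-sided exact permutation test of 2 medians against 2 allows no p below 0.3333, which the mitochondrial share and the G2/M score reached, whereas the number of UMIs gave p = 0.667. This test leaves out the pairing by plate, and each of these measures differed in the same direction on both plates. On both plates each of the 16 rows of wells held cells of a single category, so rows and categories cannot be told apart. Thinned to 5000 UMIs per cell, at the cost of 13 low and 6 high cells of plate 1 and of 4 and 1 of plate 2, the sums gave 27 higher and 25 lower genes of 3421 tested.

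**Figure D2:**
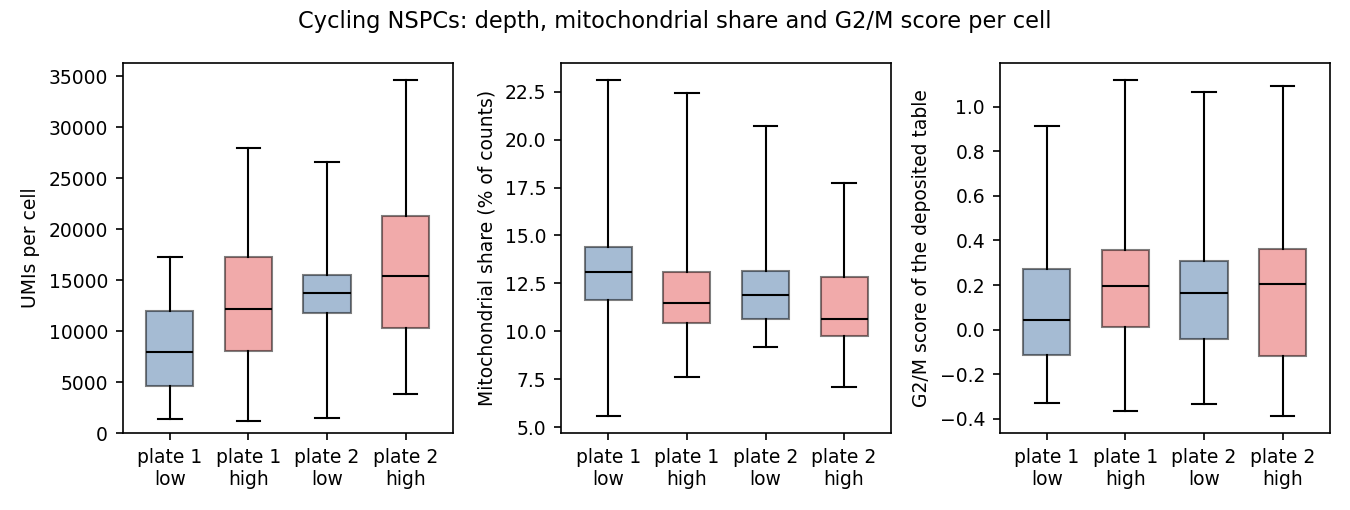
UMIs per cell, mitochondrial share of counts in percent and G2/M score (y axes) for the cycling cells of each plate and category (x axes). Boxes span the quartiles with the median as a line, and whiskers reach the lowest and highest cell, so the ranges overlap widely while on both plates the high category has the higher medians of UMIs and G2/M score and the lower median of the mitochondrial share.

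The division of cycling cells between S and G2/M phase did not differ in the same direction on both plates. G2/M cells were 54.3% of 46 low cells (95% exact binomial interval 39.01% to 69.1%) and 61.5% of 52 high cells (47.02% to 74.7%) on plate 1. On plate 2 they were 56.1% of 41 low cells (39.7% to 71.5%) and 45.5% of 33 high cells (28.1% to 63.6%). High minus low was 7.19 percentage points on plate 1 and the opposite, -10.6, on plate 2. The mean difference was -1.73 ± 12.6 percentage points (SD, n = 2 plates; two-sided exact permutation p = 1.0). These intervals cover counting error only.

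The summed cells held transcripts of NSPC markers, at unequal levels. *Fabp7*, *Vim*, *Nes*, *Hes1*, *Sox2* and *Slc1a3*, known markers of neural stem cells, together stood at 6846 to 7679 CPM of all genes in the 4 sums. *Fabp7* and *Vim* had at least 1048 counts in each sum, whereas *Sox2* had 11 to 13. The neuron marker *Map2* stood at 373 to 527 CPM of all genes, above *Nes* and *Hes1* in each sum. Markers of mature astrocytes were near 0, with *Gfap* at 1 count in the high sum of plate 1 and 0 in the others, *Aqp4* at 0 to 2 and *Gja1* at 2 to 8 counts. *S100b* had 0 counts in both low sums and 4 and 5 in the high sums. Ependymal, endothelial and fibroblast markers that were measured (*Foxj1*, *Ccdc153*, *Pecam1*, *Col1a1*, *Dcn*) had 0 to 9 counts in any sum. The microglial markers and the neuronal markers *Dcx* and *Tubb3* had no values among the genes counted, so they could not be examined. The oligodendrocyte progenitor marker *Cspg4* had 14 to 25 counts in the 4 sums.

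Genes of astroglia were among those higher in high PLIN2-GFP cycling NSPCs. Of the 28 astroglial genes listed, 20 could be tested, and 7 of them were called higher and 1 lower, against 1.16% and 1.02% of all genes. Their median log2 fold change was 0.43, beside -0.00556 over all genes tested, and 16 of the 20 lay above 0. The list was drawn up with earlier results of these cells known and is not independent evidence of its direction. The 7 that were higher encode transporters, pump subunits, enzymes and a secreted lipoprotein component. The markers of mature astrocytes, summed, stood at 12.9 and 5.29 CPM of all genes in the low sums of plates 1 and 2 and at 22.2 and 20.2 CPM in the high sums, on 0 to 8 counts per gene and sum, and their part in this result was not tested.

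*Slc4a4*, a sodium bicarbonate cotransporter (chromosome 5 of GRCm38, 88886818 to 89239653, plus strand), was counted at 162 and 178 CPM in the low sums of plates 1 and 2 and at 375 and 399 CPM in the high sums. Both high sums lay more than 2-fold above both low sums, with a log2 fold change of 1.19 ± 0.15 (SE, adjusted p = 4.10e-12 by edgeR). It was called under each of the 16 alternatives that tested it, with log2 fold changes from 0.97 to 1.25. The glutamate transporter *Slc1a3* (GLAST, chromosome 15, 8634124 to 8710764, minus strand) had 1012 and 1054 CPM in low and 1385 and 1566 CPM in high PLIN2-GFP NSPCs, again without overlap (log2 fold change 0.51 ± 0.085, SE, adjusted p = 1.32e-06 by edgeR). The GABA transporter *Slc6a11* (GAT3), which is no member of the list, stood at 124 and 120.2 CPM in low and 262 and 202 CPM in high cells (log2 fold change 0.91 ± 0.18, SE, adjusted p = 1.36e-04 by edgeR).

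*Atp1b2*, the beta subunit of a sodium pump of glia, rose from 409.6 and 512 CPM in the low sums to 681 and 612 CPM in the high sums, without overlap (log2 fold change 0.48 ± 0.11, SE, adjusted p = 0.00310 by edgeR). *Aldoc*, the brain aldolase (chromosome 11, 78322968 to 78327781, plus strand), had 533 and 379 CPM in low and 766 and 637 CPM in high cells (log2 fold change 0.63 ± 0.11, SE, adjusted p = 5.79e-06 by edgeR). For the carbonic anhydrase *Car2*, the values were 192 and 183 CPM in low and 274 and 350.2 CPM in high cells (log2 fold change 0.74 ± 0.15, SE, adjusted p = 3.59e-04 by edgeR).

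*Apoe*, the apolipoprotein that glia secrete (chromosome 7, 19696109 to 19699188, minus strand), was counted at 225 and 88.8 CPM in low and 295 and 225 CPM in high PLIN2-GFP NSPCs. Its sums touched, since the low sum of plate 1 equalled the high sum of plate 2 to 3 digits, but on each plate the high sum was above the low sum (log2 fold change 0.79 ± 0.17, SE, adjusted p = 6.17e-04 by edgeR). It was called under 9 of the 15 alternatives that tested it, with log2 fold changes from 0.21 to 1.55. *Id2*, an inhibitor of basic helix-loop-helix factors, went the other way, from 49.5 and 102 CPM in low to 31.8 and 28.1 CPM in high cells (log2 fold change -1.31 ± 0.33, SE, adjusted p = 0.01002 by edgeR), a call that held under 9 of 13 alternatives. The rest of the list was not called, among them *Mlc1* (log2 fold change 0.29), *Cpe* (0.37), *Ptprz1* (0.051) and the metallothionein *Mt1* (-0.037). Other called genes outside the list, named after their values were seen, include the potassium channel *Kcnj10* (log2 fold change 0.73), the endothelin receptor *Ednrb* (0.56), the selenium carrier *Selenop* (1.25) and the glutamate dehydrogenase *Glud1* (0.76).

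*Igfbp2*, a secreted protein that binds insulin-like growth factors (chromosome 1, 72824503 to 72852474, plus strand), was the gene with the second smallest p among those that were higher. Its 4 sums held 322 (low) and 906 (high) counts on plate 1 and 387 and 707 on plate 2, which is 800.5 ± 119.7 CPM for low and 1348 ± 33.5 CPM for high cycling cells (mean ± SD, n = 2 plates). The sums did not overlap, and the log2 fold change was 0.76 ± 0.09 (SE, edgeR adjusted p = 1.07e-13). Plate 1 alone gave 0.63 and plate 2 alone 0.88. It was 0.80 ± 0.13 in S cells (SE, adjusted p = 4.12e-05 by edgeR) and 0.70 ± 0.13 in G2/M cells (SE, adjusted p = 6.33e-04 by edgeR). It was called under 14 of the 16 alternatives that tested it, and not without the high sum of plate 1 (log2 fold change 0.72) or the low sum of plate 2 (log2 fold change 0.60), where the block was dropped as well.

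Among the genes for insulin-like growth factor signalling and PI3K, 17 of 27 were tested and had a median log2 fold change of 0.076. *Igfbp4*, a second binding protein, was called higher (250.1 and 220.1 CPM in low, 328 and 318 CPM in high, log2 fold change 0.46 ± 0.14, SE, adjusted p = 0.0739 by edgeR), and *Igfbp3* and *Igfbp5* were not, at 0.18 and -0.0095. *Pik3r1*, a regulatory subunit of PI3K (chromosome 13, 101680563 to 101768217, minus strand), fell from 181 and 187 CPM in the low sums to 84.8 and 95.5 CPM in the high sums, without overlap (log2 fold change -1.03 ± 0.20, SE, adjusted p = 7.99e-05 by edgeR). The other regulatory subunits, *Pik3r2* and *Pik3r3*, had log2 fold changes of 0.076 and -0.24 and were not called, nor was the receptor *Igf1r* (-0.47).

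Further genes with the smallest p among the higher ones have other roles. The ubiquitin ligase *Trim9* stood at 319 and 298 CPM in low and 522 and 509 CPM in high cells (log2 fold change 0.74 ± 0.13, SE, adjusted p = 1.83e-06 by edgeR), and the sulfotransferase *Chst2*, which modifies carbohydrate chains, at 302 and 290.4 CPM in low and 440.4 and 504 CPM in high cells (log2 fold change 0.68 ± 0.13, SE, adjusted p = 5.89e-05 by edgeR). Integrin beta 5, *Itgb5*, showed the steepest rise of the 84, from 16.5 and 14.8 CPM to 84.8 and 46.8 CPM, a log2 fold change of 2.00 ± 0.40 (SE, adjusted p = 2.51e-04 by edgeR), on 6 and 56 counts on plate 1 and 8 and 25 on plate 2. Both its low sums lay below the level of the expression filter. *Itgb5* was thus tested through its high sums alone, which favours a rise, so its rank and p-value are no independent evidence of one. *Pcdhgc3*, whose p was the smallest of all, shares exons with the other gamma-protocadherins, so its counts are uncertain, and its rise lay mostly on plate 2 (from 64.7 to 466 CPM) with little on plate 1 (170.4 to 218 CPM). *Gm49980* was also among the 12, with a log2 fold change of 0.88.

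Genes that the study displays for all cells were examined by name as well, a choice made on these same cells. Besides *Igfbp2*, *Aldoc*, *Car2*, *Chst2*, *Trim9*, *Pik3r1* and the ribosomal RNAs, *Pea15a*, a phosphoprotein of astrocytes, was higher (log2 fold change 0.38 ± 0.092, SE, adjusted p = 0.00474 by edgeR). *Ndufc2* and *Atp5pb*, subunits of the respiratory chain and ATP synthase, were not called (0.15 and 0.29), and neither were the topoisomerase *Top1* (-0.33) and the transcription factor *Tcf4*. *Tcf4* had 761 and 708 CPM in low and 622 and 575 CPM in high cycling cells, without overlap, and a log2 fold change of -0.30 ± 0.10 (SE, adjusted p = 0.136 by edgeR).

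Genes of neuronal differentiation were among those lower in high PLIN2-GFP cycling NSPCs. Of 34 such genes, 20 were tested, 4 were called lower and 0 higher, beside 1.02% and 1.16% of all genes, and 17 lay below 0, with a median log2 fold change of -0.35. *Basp1*, a membrane protein of growth cones (chromosome 15, 25363277 to 25413764, minus strand), fell from 366 and 411 CPM in the low sums to 182 and 144 CPM in the high sums, so that both high sums were below both low sums (log2 fold change -1.25 ± 0.15, SE, adjusted p = 1.07e-13 by edgeR). Its call held under all 16 alternatives that tested it. *Gap43*, the related growth cone protein, had 231 and 292 CPM in low and 180.1 and 122 CPM in high cells (log2 fold change -0.80 ± 0.16, SE, adjusted p = 2.90e-04 by edgeR), and the microtubule regulator *Stmn1* had 879.6 and 1064 CPM in low and 723 and 760.3 CPM in high cells (log2 fold change -0.39 ± 0.095, SE, adjusted p = 0.00648 by edgeR). The high and low sums of both were apart. Summed, the neuron markers *Map2*, *Rbfox3* and *Snap25*, nearly all of it *Map2*, stood at 505 and 538 CPM of all genes in the low sums of plates 1 and 2 and at 485 and 377 CPM in the high sums, and their part in this result was not tested.

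*Sox4*, a transcription factor of neuronal precursors (chromosome 13, 28948919 to 28953713, minus strand), was counted at 1045 and 596 CPM in low and 436 and 427 CPM in high PLIN2-GFP NSPCs. The high sums were close to each other and below both low sums, of which that of plate 1 was far higher than that of plate 2 (log2 fold change -0.89 ± 0.11, SE, adjusted p = 2.00e-13 by edgeR). Without that low sum and the block, the log2 fold change was -0.47 and the gene was not called. Nor was it called by edgeR without the block or by DESeq2. Among the members that were not called, *Sox11* (log2 fold change -0.18), *Map2* (-0.33) and *Tubb2b* (-0.23) lay below 0. Called genes outside the list, named after their values were seen, include the tubulin *Tuba1a* (log2 fold change -0.48, but -0.037 on plate 1 alone), the netrin receptor *Dcc* (-2.41), *Enc1* (-1.18), the semaphorin *Sema5b* (-1.31) and the glutamate receptor subunit *Gria2* (-0.60). *Nnat*, neuronatin, a small membrane protein of the developing brain, had 682 and 422 CPM in low and 360.2 and 299.6 CPM in high cells (log2 fold change -0.72 ± 0.12, SE, adjusted p = 1.83e-06 by edgeR).

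**Figure D3:**
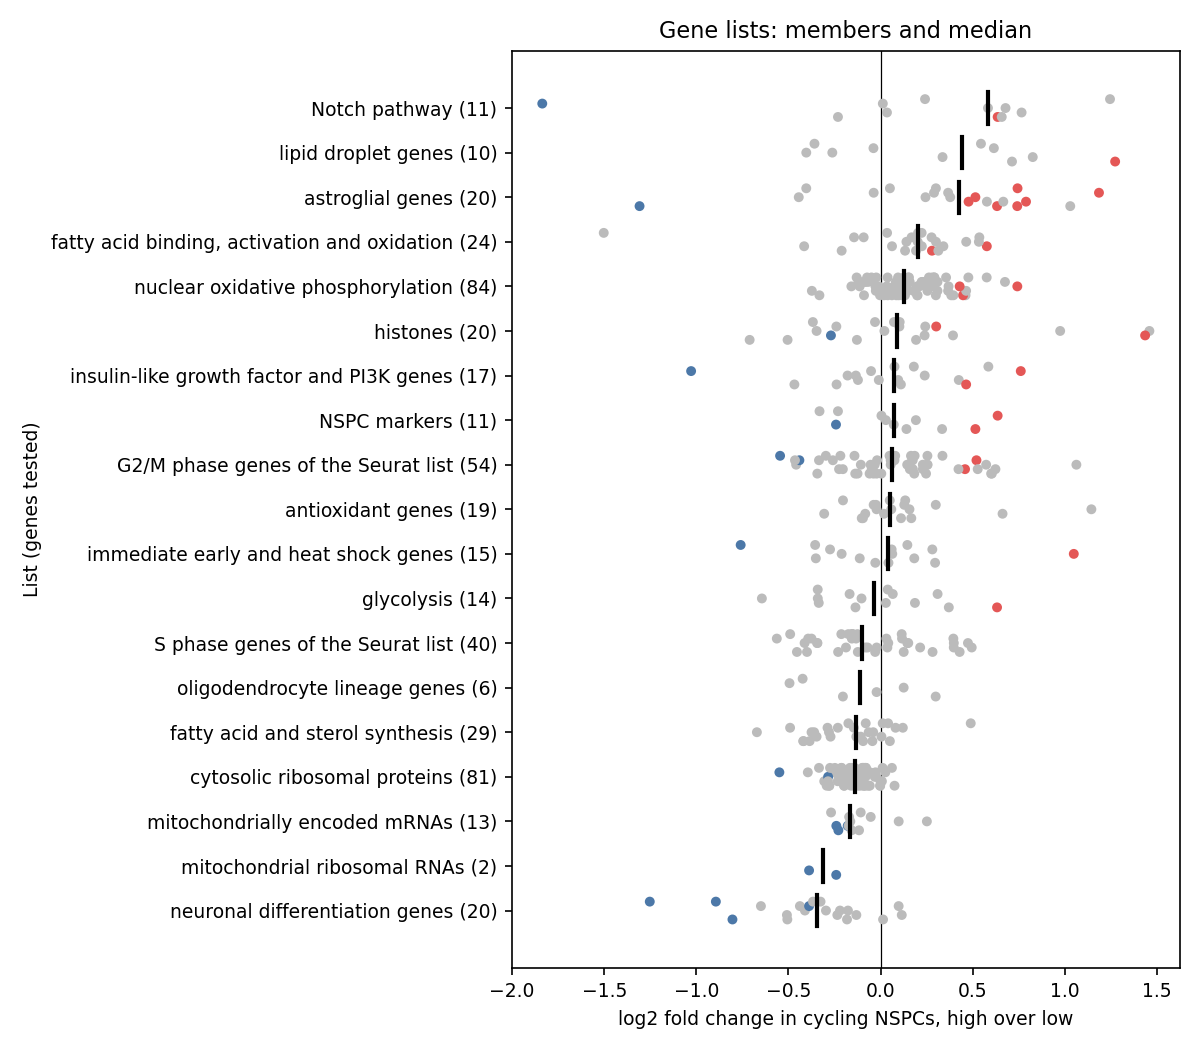
Log2 fold change of high over low PLIN2-GFP cycling NSPCs (x axis) for the tested members of each gene list (y axis, number of genes tested in brackets). Points in red were called higher and points in blue lower by edgeR, grey points were not called, and the black bar is the median, which runs from -0.35 for neuronal differentiation genes to 0.58 for the Notch pathway.

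*Dll1* and *Gadd45g* are transcripts of neuronal commitment. DLL1 is a ligand that activates Notch on neighbouring cells, and GADD45G is a stress and cell cycle protein that progenitors express as they begin to differentiate. *Dll1* (chromosome 17, 15367354 to 15376872, minus strand) was counted 38 times in the low and 16 times in the high sum of plate 1, and 45 and 15 times on plate 2, or at 104 and 83.2 CPM in low and 24.2 and 28.1 CPM in high PLIN2-GFP NSPCs. This is a log2 fold change of -1.84 ± 0.33 (SE, adjusted p = 8.81e-06 by edgeR), and each of the 13 alternatives that tested the gene called it. *Gadd45g* (chromosome 13, 51846678 to 51848468, plus strand) had 184 and 211 CPM in low and 74.2 and 89.9 CPM in high cells (log2 fold change -1.27 ± 0.20, SE, adjusted p = 1.73e-07 by edgeR). Neither gene's sums overlapped between the categories. The antiproliferative gene *Btg2*, which neuron-producing progenitors express, was lower as well (165 and 131 CPM in low, 115 and 61.8 CPM in high, log2 fold change -0.76 ± 0.21, SE, adjusted p = 0.0258 by edgeR).

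The promoters of *Dll1* and *Gadd45g* are shown because both genes are known targets of proneural factors, which bind E-boxes. Capitals mark the E-box CAGCTG, which reads the same on both strands, in the 150 bases before the transcription start (RefSeq, GRCm38.p6, 5′ to 3′ on the strand of the gene). For *Dll1* the second of 2 annotated starts is shown (chr17:15376933-15377082, minus strand), and the window of the first start holds 0 copies, and for *Gadd45g* the window is chr13:51846525-51846674, plus strand.
Dll1: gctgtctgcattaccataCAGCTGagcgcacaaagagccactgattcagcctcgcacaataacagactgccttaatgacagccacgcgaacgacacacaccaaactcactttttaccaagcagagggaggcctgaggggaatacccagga
Gadd45g: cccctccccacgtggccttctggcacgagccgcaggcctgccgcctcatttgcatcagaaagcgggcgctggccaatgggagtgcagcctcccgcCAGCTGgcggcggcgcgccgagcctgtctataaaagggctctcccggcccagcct
CAGCTG occurred in 8.21% of the 27025 windows of this length, 1 per gene, in 13.4% of the 67 windows of genes called higher and in 6.67% of the 45 windows of genes called lower that had an entry. A match describes these letters only.

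Across the Notch pathway, 11 of 19 genes were tested, with 1 called higher and 1 lower, beside 1.16% and 1.02% of all genes. The median log2 fold change was 0.58 and 9 of the 11 lay above 0. The median was lower on each plate alone (0.13 on plate 1 and 0.45 on plate 2) and by phase (0.28 in S and 0.16 in G2/M cells, over 9 genes each). *Dll1* was the member that was lower, and the member that was higher was *Hes1*, the Notch effector that represses proneural genes (chromosome 16, 30064384 to 30067796, plus strand), at 124 and 102 CPM in low and 142 and 202 CPM in high cells (log2 fold change 0.64 ± 0.19, SE, adjusted p = 0.0640 by edgeR). *Hes1* was called under 7 of the 15 alternatives that tested it, with log2 fold changes from 0.35 to 1.07. The receptors *Notch1*, *Notch2* and *Notch3* had log2 fold changes of -0.23, 0.77 and 0.58, the ligand *Jag1* had 1.25, and the targets *Hey1* and *Nrarp* had 0.68 and 0.66, none of which was called. The list's median was -0.093, of the opposite sign, over the members that could be tested in cells thinned to 5000 UMIs.

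Of the G2/M phase genes of the list that scores the phases, all 54 were tested, and 2 were called higher and 2 lower, beside 1.16% and 1.02% of all genes. Their median log2 fold change was 0.061, and it was 0.15 on plate 1 and -0.019 on plate 2. It changed sign under 2 of 18 alternatives. These were plate 2 alone and cells thinned to 5000 UMIs. These genes also set the phase by which the cells were chosen. *Ube2c*, the ubiquitin-conjugating enzyme of the anaphase-promoting complex (chromosome 2, 164769898 to 164778822, plus strand), was higher at 743 and 888 CPM in high against 536 and 601 CPM in low cells (log2 fold change 0.52 ± 0.10, SE, adjusted p = 1.50e-04 by edgeR), as was *Top2a*, the topoisomerase that separates chromosomes (chromosome 11, 98992943 to 99024189, minus strand), at 802 and 816 against 566 and 610.4 CPM (log2 fold change 0.46 ± 0.10, SE, adjusted p = 0.00150 by edgeR). *Tacc3*, a spindle protein, and *Anp32e*, a histone chaperone, were lower, with log2 fold changes of -0.55 and -0.44. None of the 40 S phase genes tested was called by edgeR (median -0.10).

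The promoter of *Top2a* is shown since mitotic genes share CCAAT boxes and the element TTTGAA near their starts. Capitals mark CCAAT and TTTGAA on either strand (ATTGG and TTCAAA on the other) in the 150 bases before the start, chr11:99024190-99024339, minus strand (RefSeq, GRCm38.p6).
Top2a: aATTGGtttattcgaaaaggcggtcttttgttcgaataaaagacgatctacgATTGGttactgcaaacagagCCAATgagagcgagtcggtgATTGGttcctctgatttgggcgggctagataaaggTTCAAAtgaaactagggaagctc
It held 4 copies of CCAAT and 1 of TTTGAA, and the same window of *Ube2c* held 2 and 1. Over 27025 windows, 25.3% held CCAAT and 9.24% held TTTGAA. Of the 67 windows of genes called higher, 22.4% and 8.96% held them, and of the 45 windows of genes called lower 35.6% and 4.44%.

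Of the 20 histone genes tested, 2 were called higher and 1 lower, beside 1.16% and 1.02% of all genes, with a median log2 fold change of 0.088 that was 0.12 on plate 1 and -0.08 on plate 2. It changed sign in thinned cells as well. *Hist1h2ap* (0.30) and *H2ac8* (1.44), H2A genes of the replication-dependent clusters, were higher, and *H2az1* (-0.27), a variant made throughout the cycle, was lower. Replication-dependent H2A genes have near-identical copies, so these counts are uncertain.

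*Plin2* itself (chromosome 4, 86648386 to 86670060, minus strand) held 9 counts in the low and 47 in the high sum of plate 1, and 11 and 22 on plate 2. High sums were above low sums on both plates, at 24.7 and 20.3 CPM in low and 71.1 and 41.2 CPM in high PLIN2-GFP NSPCs, with a log2 fold change of 1.27 ± 0.38 (SE, adjusted p = 0.0595 by edgeR), called under 8 of 13 alternatives with log2 fold changes from 0.87 to 1.67. The cells also carry a PLIN2 coding sequence in the fusion, and whether its transcripts were counted as *Plin2* was not tested. Of the 10 LD genes tested, *Plin2* alone was called, beside 1.16% higher and 1.02% lower over all genes. The median log2 fold change was 0.44, and 6 of the 10 lay above 0. Among these were *Soat1*, which esterifies cholesterol (0.71), the lipase *Pnpla2* (0.34) and its activator *Abhd5* (0.62). *Ldah* (-0.40), *Dgat1* (-0.36), *Mgll* (-0.26) and *Aup1* (-0.039) lay below 0. The median of the list was 0.62 in S and 0.054 in G2/M cells, over 9 genes each.

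In lipid metabolism, the genes for binding, activation and oxidation of fatty acids had a median log2 fold change of 0.20 over 24 tested, of which 19 lay above 0. Of the 24, 2 were called higher and 0 lower, beside 1.16% and 1.02% of all genes. These were *Acsbg1*, an acyl-CoA synthetase for long-chain fatty acids, at 313 and 405 CPM in low and 428 and 644 CPM in high cells (log2 fold change 0.58 ± 0.12, SE, adjusted p = 4.60e-04 by edgeR), and *Dbi*, the acyl-CoA-binding protein, at 1449 and 1415 CPM in low and 1856 and 1629 CPM in high cells (log2 fold change 0.28 ± 0.08, SE, adjusted p = 0.0367 by edgeR). On plate 1 alone, the median of the list was -0.085, of the opposite sign. Of the 29 genes of fatty acid and sterol synthesis tested, 0 were called by edgeR in cycling cells and 7 lay above 0, with a median of -0.13, and *Scd2* and *Hmgcs1*, the members with the highest CPM, had 0.041 and -0.28. Glycolysis had 1 of 14 genes called, *Aldoc*, beside the same shares of all genes, and a median of -0.037 that changed sign under 7 of 18 alternatives.

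Both ribosomal RNAs and 3 mRNAs of the mitochondrial genome were lower, and 3 nuclear transcripts of the respiratory chain and ATP synthase higher, in high PLIN2-GFP cycling NSPCs. The ribosomal RNA *mt-Rnr2* fell from 26907 and 22594 CPM in the low sums to 19838 and 17899 CPM in the high sums (log2 fold change -0.39 ± 0.053, SE, adjusted p = 3.47e-10 by edgeR), and *mt-Rnr1* from 11055 and 10878 to 9759 and 8828 CPM (log2 fold change -0.24 ± 0.057, SE, adjusted p = 0.00446 by edgeR). High and low sums of both were apart. Of 13 mitochondrially encoded mRNAs, 3 were called lower and 0 higher by edgeR (median -0.16), beside 1.02% and 1.16% of all genes. These were *mt-Cytb* (-0.24), *mt-Atp6* (-0.23) and *mt-Nd2* (-0.18). The feature *Gm10925* had the same log2 fold change and adjusted p as *mt-Atp6* to every digit, so the counts of *mt-Atp6* may be shared with it and are uncertain. Nuclear genes of oxidative phosphorylation had 3 of 84 called higher and 0 lower, beside the same shares of all genes. Of the 84, 65 lay above 0, with a median of 0.13 beside -0.00556 over all genes tested. *Uqcrfs1* and *Uqcrc1*, subunits of complex III, had log2 fold changes of 0.43 and 0.74, and *Atp5k*, a subunit of the ATP synthase, had 0.45. These small shifts move with the mitochondrial share and the depth of the cells given above, whose part in them was not tested.

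Of 81 cytosolic ribosomal protein genes tested, 2 were called lower and 0 higher by edgeR, beside 1.02% and 1.16% of all genes, with 5 of 81 above 0 and a median log2 fold change of -0.14. *Rpl23a* had 976 and 966 CPM in low and 639 and 687 CPM in high cells (log2 fold change -0.55 ± 0.10, SE, adjusted p = 7.41e-06 by edgeR), and *Rps26* a log2 fold change of -0.28. Ribosomal protein genes have many processed copies that can share their reads, so single values are uncertain. The feature ENSMUSG00000106106.3, which had no match in the annotation, at -0.34, and the predicted genes *Gm10275* (-0.72), *Gm11518* (-0.96) and *Gm45713* (-1.01) complete the 12 lower genes with the smallest p. *Gm45713* rests on the low sum of plate 1, as its log2 fold change was 0.013 without that sum and the block. *Gm11518* was called under 10 of 15 alternatives and had a log2 fold change of -0.19 in cells thinned to 5000 UMIs.

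The remaining lists hold few tested genes, and their calls stand beside 1.16% higher and 1.02% lower over all genes. Of 11 NSPC markers, *Slc1a3* and *Hes1* were higher and *Vim* was lower, from 2930 and 3270 CPM in low to 2391 and 2860 CPM in high cells (log2 fold change -0.24 ± 0.07, SE, adjusted p = 0.0384 by edgeR), while *Fabp7* and *Nes* had 0.14 and 0.029 and the list a median of 0.072. Immediate early and heat shock genes had 1 called in each direction among 15, *Ier3* (1.05) and *Btg2*, with a median of 0.043 that changed sign under 8 of 18 alternatives. By edgeR, 0 of 19 antioxidant genes (median 0.05) and 0 of 6 oligodendrocyte lineage genes (median -0.11) were called. *Txn1* and *Prdx1*, the antioxidant genes with the highest CPM, had log2 fold changes of 0.13 and 0.13, and *Olig1* and *Olig2* had -0.20 and -0.022. None of the ependymal, endothelial, mural and fibroblast markers in the table had enough counts for a test.

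When the cycling cells were separated by phase, most of these differences had the same direction in S and in G2/M cells. Counts were summed per plate, category and phase, which gave 8 sums, and 5742 genes were tested. In S cells, 21 genes were higher and 22 lower with high PLIN2-GFP (0.366% and 0.383% of the genes tested, edgeR adjusted p under 0.1), and in G2/M cells 17 were higher and 18 lower (0.296% and 0.313%). Without the block these counts were 4 and 1 in S and 1 and 2 in G2/M cells. Of the 43 genes called in S cells, 33 had the same sign in G2/M cells, and of the 35 called in G2/M cells, 30 had the same sign in S cells, beside 56.2% of all genes tested. The phases share no cells but share the plates. Called in both were 8 genes, 18.6% of the calls in S and 22.9% of those in G2/M phase. Over the 672 most abundant genes (mean log2 CPM above 8), 69.9% had the same sign in both phases, a higher share than over all genes. Their fold changes in S and G2/M cells had a correlation of 0.439, as a description over genes that are not independent.

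**Figure D4:**
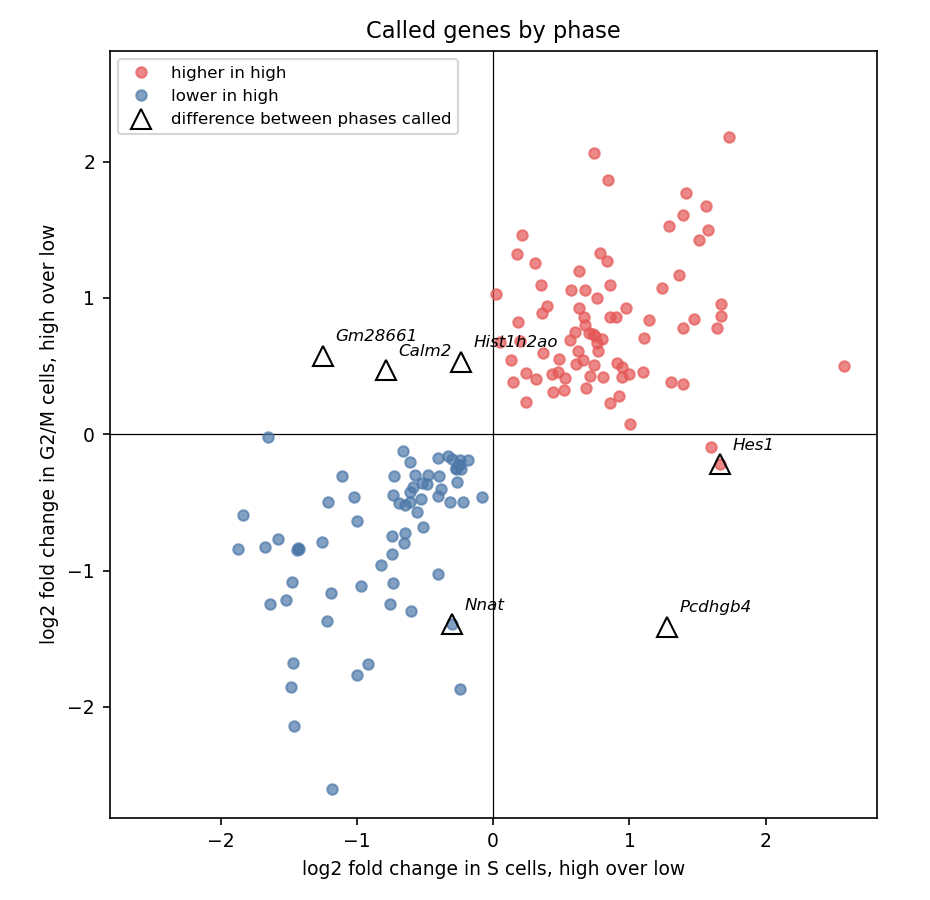
Log2 fold change of high over low PLIN2-GFP in S cells (x axis) and in G2/M cells (y axis) for the genes called in all cycling cells that were tested by phase, in red where higher and in blue where lower. Of these 150 genes, 148 have the same sign in both phases, which the call in the pooled cells favours, and triangles mark 6 of the 7 genes whose difference itself differs between the phases, with no dot where a gene was not called in all cycling cells.

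*Slc4a4* kept its rise in both phases, at 179 and 217 CPM in the low and 447 and 499.7 CPM in the high sums of S cells and at 159.7 and 151 CPM in the low and 348 and 295 CPM in the high sums of G2/M cells. The log2 fold changes were 1.24 ± 0.21 and 1.07 ± 0.23 (SE, adjusted p = 7.22e-05 and 0.00379 by edgeR). *Slc1a3* and *Apoe* were called in S cells (0.68 and 1.00) and not in G2/M cells (0.34 and 0.44), and *Car2* and *Slc6a11* in G2/M cells (1.09 and 1.19) and not in S cells (0.35 and 0.63), but for none of these 4 was the difference between the phases called by edgeR (adjusted p from 0.777 to 0.985). The astroglial list had 5 of 18 genes called higher and 0 lower in S cells, beside 0.366% and 0.383% of all genes tested. In G2/M cells 3 of its genes were called higher and 1 lower, beside 0.296% and 0.313%. The lower one was the metallothionein *Mt2* (-1.32). The list had medians of 0.45 and 0.28. *Anxa3*, a phospholipid-binding annexin, was called in S cells (2.58) and had 0.50 in G2/M cells. This difference was not called (adjusted p = 0.222 by edgeR). The low sums of S cells had 17.9 and 23.2 CPM and the high sums 153 and 105. These low sums lay below the level of the expression filter, so the size of the rise in S cells rests on few counts.

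In the other direction, *Basp1* was lower in S cells on both plates (585 and 406 CPM in low, 172 and 133 CPM in high, log2 fold change -1.68 ± 0.23, SE, adjusted p = 3.96e-07 by edgeR), whereas in G2/M cells its low sums were 193 and 441 and its high sums 199 and 169.8 CPM, so that the high sum was below the low sum on plate 2 alone. *Sox4* was lower in G2/M cells on both plates, at 1151 and 690.4 CPM in low and 528 and 317 CPM in high cells (log2 fold change -1.09 ± 0.17, SE, adjusted p = 6.69e-06 by edgeR), and in S cells on plate 1 alone (1021 and 538 CPM in low, 340.3 and 534 CPM in high). *Dll1* fell in G2/M cells (82.6 and 139.6 CPM in low, 29.2 and 22.3 CPM in high, log2 fold change -2.14 ± 0.46, SE, adjusted p = 0.00379 by edgeR). In both phases its high sums lay below the level of the expression filter. *Dll1* was thus tested by phase through its low sums alone, which favours a fall, so this p-value is no independent evidence of one. In S cells *Dll1* was counted at 137 and 30.96 CPM in low and 19.1 and 34 CPM in high cells, lower on plate 1 alone. *Gadd45g* had the same form, with 242 and 355 CPM in low and 90.2 and 67.03 CPM in high G2/M cells (log2 fold change -1.87 ± 0.28, SE, adjusted p = 1.35e-06 by edgeR) and a log2 fold change of -0.24 in S cells. The difference between the phases was not called for any of these 4 genes (adjusted p = 0.679 for *Basp1*, 0.985 for *Sox4*, 0.985 for *Dll1* and 0.191 for *Gadd45g* by edgeR).

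**Figure D5:**
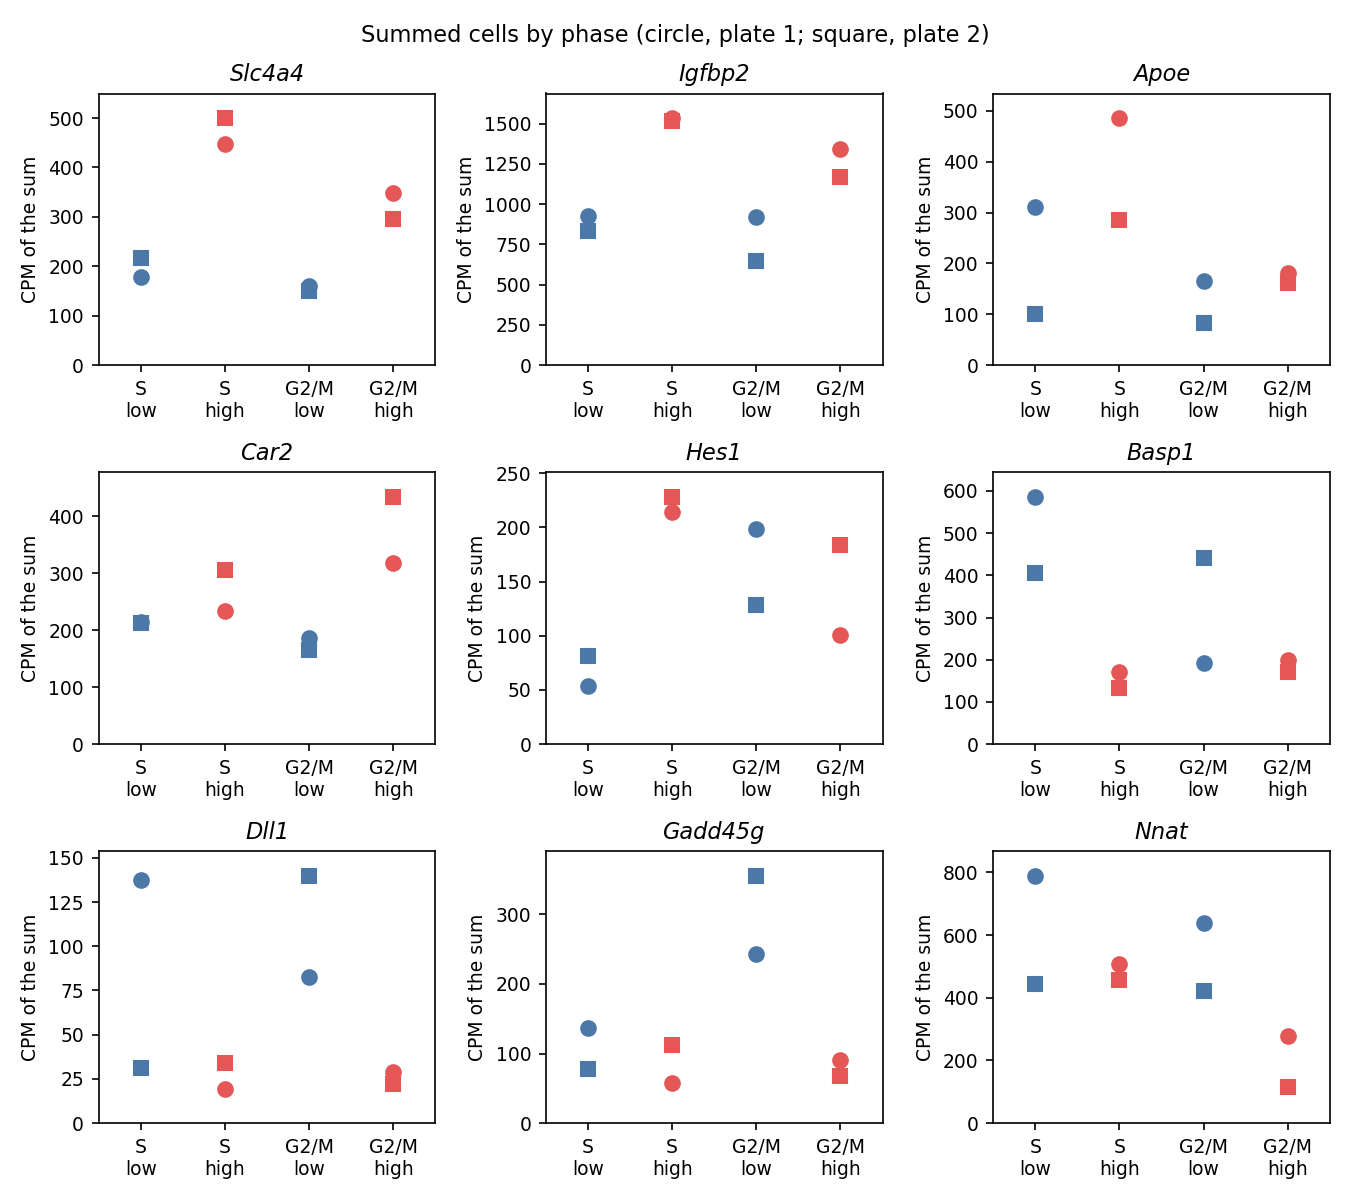
CPM of the summed cells (y axes) for 9 genes in S and G2/M cells of low (blue) and high (red) PLIN2-GFP (x axes), with plate 1 as circles and plate 2 as squares. High sums lie above low sums on both plates in both phases for *Slc4a4* and *Igfbp2* and in S cells for *Hes1*, and below them in G2/M cells for *Dll1*, *Gadd45g* and *Nnat*.

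The mitochondrial ribosomal RNA *mt-Rnr2* was lower in both phases (-0.32 in S and -0.49 in G2/M cells), and *mt-Rnr1* and ENSMUSG00000106106.3 were called in G2/M cells, at -0.46 and -0.50. *Top2a* was higher in G2/M cells (804 and 683 CPM in low, 1080 and 1287 CPM in high, log2 fold change 0.68 ± 0.14, SE, adjusted p = 0.00379 by edgeR) and had 0.051 in S cells, a difference between the phases that was not called (adjusted p = 0.583 by edgeR). Within G2/M phase the median G2/M score was 0.271 in low and 0.315 in high cells on plate 1 and 0.289 and 0.399 on plate 2, and its part in these results was not tested. *Gm49980* was also higher in G2/M cells (1.46). In S cells, *Tuba1a* (-0.73), the protocadherin *Pcdhgc4* (-1.65) and the pseudogenes *Gm28661* and *Gm28438* (-1.25 and -0.66), whose reads may be shared with the genes they copy, were among the 5 lower genes with the smallest p, besides *Basp1*.

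The difference between high and low PLIN2-GFP itself differed between S and G2/M phase for 7 genes of 5742, 0.122% of those tested. *Hes1* was counted 9 times in low and 56 times in high S cells of plate 1 and 21 and 67 times on plate 2. In G2/M cells it was counted 36 and 38 times on plate 1 and 34 and 41 times on plate 2. High PLIN2-GFP S cells thus had 214 and 228 CPM against 53.7 and 81.3 in low S cells, whereas in G2/M cells the categories overlapped, and the log2 fold change in S minus that in G2/M cells was 1.89 ± 0.42 (adjusted p = 0.0349 by edgeR). The calmodulin gene *Calm2* was lower in high S cells (382 and 306 CPM in low, 233 and 167 CPM in high) and was not called in G2/M cells (297 and 257 CPM in low, 419 and 353 CPM in high), with a difference of -1.26 ± 0.29 (adjusted p = 0.0466 by edgeR). *Nnat* was lower in high G2/M cells (639 and 423 CPM in low, 278.7 and 116 CPM in high) and in S cells on plate 1 alone (788 and 445 CPM in low, 509 and 456 CPM in high), a difference of 1.09 ± 0.27 (adjusted p = 0.0585 by edgeR). *Hist1h2ao*, *Pcdhgb4* and *Gm28661* were also called, with differences of -0.77, 2.69 and -1.82, and each of them has near-identical or exon-sharing relatives. Without the plate block and by DESeq2, 0 genes were called (189 and 38 at an unadjusted p under 0.05).

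Set against the 132 cells in G1 phase (80 low, 52 high), the difference between high and low PLIN2-GFP differed in cycling cells for 2 of 6935 genes, 0.0288% of those tested. *Gadd45g* was lower in high cycling cells, and in G1 cells it had 74 counts in low and 57 in high cells of plate 1 and 17 and 49 on plate 2, so that the G1 sums overlapped. The log2 fold change in cycling minus that in G1 cells was -1.73 ± 0.36 (SE, adjusted p = 0.0965 by edgeR). *Tub*, the other gene, rested on 11 and 8 counts in low and 2 and 3 in high cycling cells, with 0 counts in 1 low sum of G1 cells. Without the block and by DESeq2, 0 genes were called (216 and 38 at an unadjusted p under 0.05). The genes that lead in cycling cells had G1 values of 0.32 for *Slc4a4*, -0.004 for *Slc1a3*, -0.26 for *Itgb5*, 0.35 for *Igfbp2*, -0.60 for *Dll1*, -0.57 for *Sox4* and -1.88 for *Basp1* on the log2 scale. Differences between cycling and G1 cells were not called for any of these 7 (adjusted p from 0.242 to 0.973 by edgeR). The astroglial list had a median of 0.11 in G1 against 0.43 in cycling cells, and the neuronal differentiation list -0.29 against -0.35. These medians were not compared by a test.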

How the data were processed

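Cycling cells were defined by the phase (S or G2M) and compared by the category (low or high) in the deposited per-cell table. The authors made the gene table with Salmon and alevin on GRCm38. Its deposited values are estimated counts of UMIs that the authors obtained with alevin after demultiplexing barcodes, of which 87.1% of those above 0 were whole within 1e-06. The per-cell table deposited by the authors also gives total counts, the mitochondrial fraction and percent of counts and cycle scores, which they computed from those counts, with replicates not pooled. Count columns were joined to cells by equal total count (within 0.01) and number of genes. Estimated counts were summed per plate and category, rounded, filtered by edgeR's filterByExpr, scaled by TMM and tested with edgeR 4.0.16 (quasi-likelihood, plate as block, R 4.3.3), with Benjamini-Hochberg adjustment and a call at 0.1. The fits of 4 sums left 1 residual degree of freedom, those of 8 sums 3. The plates pair the categories as a shared batch, and low and high sums of a plate deviated together (correlation 0.223 over 7252 genes). A gene that passes through 1 category alone counts as tested. Alternatives were DESeq2 1.42.0, limma 3.58.1, other scalings, filters and cells, and each sum left out. The procedure was also run on counts simulated with no difference between plates and the same dispersion for all genes. That run does not probe the spread between plates on which the calls rest. Depth was 388416 to 674864 UMIs per sum. Gene positions came from GENCODE M21, in which 14714 of 15046 genes matched.

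Genes named were the 12 called with the smallest p in each direction in cycling cells, the 5 in each direction in S, in G2/M and in the comparisons of these and of G1, genes the study displays, and of each list the called members, up to 4, or else the 2 with the highest CPM. The 12 and the 5 were taken among genes with the same direction on both plates. A few genes that these rules name are not reported here. Further genes were chosen after their values were seen. The members and lists were chosen with earlier results of these data known. Well barcodes shared by both plates number 21, on 42 cycling cells, as barcodes are reused per plate. No cycling cell was marked a doublet.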

Additional observations from a re-analysis of the deposited data

Results flagged for a closer look

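The difference between high and low PLIN2-GFP itself differed between S and G2/M cells for 7 genes by edgeR's test of the interaction, given as the log2 fold change in S minus that in G2/M cells. It was 1.89 for *Hes1*, 1.09 for *Nnat* and -1.26 for *Calm2*. For *Pcdhgb4*, *Gm28661* and *Hist1h2ao*, which share sequence with relatives, it was 2.69, -1.82 and -0.77.

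Between cycling and G1 cells the difference differed for 2 genes by the same test, with a log2 fold change in cycling minus G1 cells of -1.73 for *Gadd45g* and -5.03 for *Tub*. The value for *Tub* rests on counts of 4 and 0 in low and 20 and 3 in high G1 cells and depends on the prior count of the fit.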

How the results depend on the processing

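The counts of called genes changed with the plate block, the test, the filter and the sums included, and with 2 plates the spread rests on few residual degrees of freedom. In cycling cells (84 higher, 74 lower by edgeR) no replicate block gave 4 and 3 (413 genes at an unadjusted p under 0.05), DESeq2 3 and 7, limma's voom 72 and 83, a stricter filter 18 and 14, cells thinned to 5000 UMIs 27 and 25, and library size alone 128 higher. Leaving out 1 sum, where the lone sum of a category is assumed to vary like the other category, gave 2 to 13 higher and 4 to 15 lower. In S cells (21 and 22) no block gave 4 and 1, library size 39 higher, DESeq2 0 and 0 (97 at an unadjusted p under 0.05), thinning 12 and 4, S cells fitted alone 36 higher, and 14 were lower with a weaker filter, 13 with a stricter one, 14 with cells scoring above 0.1 and 13 at an adjusted p under 0.05. Leaving out 1 sum gave 4 to 8 higher and 4 to 6 lower. In G2/M cells (17 and 18) no block gave 1 and 2, library size 27 and 11, DESeq2 0 and 3 (72 at an unadjusted p under 0.05), voom 28 lower, a stricter filter 7 lower, thinning 10 and 8, G2/M cells fitted alone 26 and 34, an adjusted p under 0.05 10 lower, and leaving out 1 sum 3 to 7 and 2 to 12.

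For S against G2/M (7 genes) no block and DESeq2 gave 0 (189 and 38 at an unadjusted p under 0.05), a stricter filter 2, and thinning and cells scoring above 0.1 gave 3 each. For cycling against G1 (2 genes) a weaker filter gave 9, and 0 were left by edgeR without the block (216), by DESeq2 (38), with a stricter filter (114), with thinned cells (214), with cells scoring above 0.1 (347) and at an adjusted p under 0.05 (375), with the counts at an unadjusted p under 0.05 in brackets. Leaving out a sum was not run for these comparisons. The cause of these shifts was not tested, except that filters and thinning change the number of genes tested.

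Over the 73 genes followed, 908 of 1277 values were counted as the same, 329 kept the direction and lost the call, and 8 gained it. A change of sign was counted for 24, and 8, all from plate 2 alone with no test, moved by more than the spread. Where there was a test, the same means the same direction and side of the threshold. A value of 1 plate alone was counted as the same within the SD of the 2 plates around the fitted value. For genes not called, its sign was not checked, so changes of sign on 1 plate alone are missing from the 24. *Slc4a4*, *Basp1* and *Dll1* were called under each alternative that tested them. Among called genes in cycling cells, the log2 fold change of *Gm45713* was 0.013 without the low sum of plate 1. The remaining changes of sign that were counted are of genes not called in cycling cells. *Gm28661* had 0.038 with library size, 0.0045 with a weaker filter, 0.63 when thinned, 0.32 with cells scoring above 0.1, and 0.044 and 0.047 without the low and the high sum of plate 1. Without the low sum of plate 1, *Calm2* had 0.062, *Hist1h2ao* -0.23 and *Olig2* 0.17. Without the high sum of plate 1, *Pcdhgb4* had 0.15, *Fabp7* -0.019, *Nes* -0.048, *Scd2* -0.090 and *Txn1* -0.026. Without the low sum of plate 2, *Nes* had -0.13 and *Rrm1* 0.084, and without its high sum *Calm2* had 0.15. When thinned, *Pcdhgb4* had 0.063, *Nes* -0.051 and *Rrm1* 0.088. *Olig2* had 0.034 with library size, 0.0014 with a weaker filter and 0.015 with cells scoring above 0.1.

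The mean difference in the share of G2/M cells was 2.87 percentage points with cells scoring above 0.1, -1.23 with cells under 20% mitochondrial counts and -0.475 with cells of at least 5000 UMIs.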
